A study of Arabidopsis thaliana with 12 samples.

Results

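The genes described here encode 10 enzymes of aliphatic glucosinolate synthesis in Arabidopsis thaliana, grouped as those of the core structure. They were chosen by name, as CYP79F1, CYP79F2, CYP83A1, GSTF11, GGP1, SUR1, UGT74C1, SOT17, SOT18 and FMOGS-OX1. These are 10 of the 33602 genes listed in each table, and all 10 were among the 20783 that passed the filter on low counts. RNA-seq was carried out on whole seedlings aged 10 days, in 12 libraries that form 4 groups of 3. The wild type was Col-0 and the mutant was atrx-2, an allele of the chromatin remodeller gene ATRX. Each genotype was grown in long days under normal light, given as 130 µmol, or under low light, given as 30 µmol. The labels number the replicates but do not say how they were grown apart. Each p-value therefore reflects only how much these libraries vary, and that variation may be technical. Neither the nature of the atrx-2 lesion nor the number of plants pooled per library is stated in the sources used here.

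Glucosinolates are sulfur-rich defence compounds of the cabbage order, stored in the plant and cut into toxic products by myrosinases when tissue is damaged. The aliphatic class starts from methionine whose side chain has been lengthened. CYP79F1 and CYP79F2 turn these amino acids into aldoximes, and CYP83A1 oxidises the aldoximes to a reactive form that is conjugated with glutathione, a step assigned to GSTF11. GGP1 trims the glutathione conjugate, SUR1 cleaves it to a thiohydroximate, UGT74C1 adds glucose and the sulfotransferases SOT17 and SOT18 add sulfate. FMOGS-OX1 acts after the core is complete and oxidises the sulfur of the side chain. GGP1 and SUR1 also serve the indole class, whose other core steps are listed here under separate genes. In Arabidopsis the MYB28, MYB29 and MYB76 factors, acting with MYC2, MYC3 and MYC4, are the known activators of the aliphatic genes.

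Library totals lay between 13733302 and 23899191 estimated counts. ATRX (AT1G08600) stood at 35.1 to 45.5 CPM in the wild-type libraries and 0.399 to 1.02 CPM in the atrx-2 libraries, where CPM is the count relative to the TMM-scaled library size. The share of ribosomal RNA was 3.73% to 8.67% in the normal-light libraries against 9.81% to 16.7% in the low-light libraries, and that of chloroplast genes was 2.29% to 3.55% against 4.83% to 8.9%. The third wild-type low-light library had the lowest total and the highest ribosomal and chloroplast shares, 16.7% and 8.9%. It stood apart for the glucosinolate genes as well: all 10 were lowest in it within its group, whereas 35.2% of all tested genes were. The effect of leaving it out is given beside the results on these genes. The label of whole seedling was met by its markers. All 5 root markers were detected, summing to 68.6 to 85.6 CPM, as were all 4 shoot markers, summing to 66.1 to 85.6 CPM, on library sizes without TMM scaling. The 7 seed storage markers summed to at most 0.801 CPM. In such bulk samples, fewer cells of a type and less RNA per cell cannot be told apart.

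CYP79F1 (AT1G16410; chr1:5608682-5612064, plus strand) and CYP79F2 (AT1G16400; chr1:5605044-5607498, plus strand) are tandem genes with 1183 bases between them. All coordinates and sequences are from the RefSeq annotation and genome of TAIR10.1, since the deposited tables give none. Their coding sequences were 90.7% identical, so the promoters of the pair are shown first, as the 250 bases before to 50 after the annotated start. CYP83A1 is shown because it is the third member to hold the same MYB-type element, and UGT74C1 because it fell under low light in both genotypes and holds none of the motifs searched. Capitals mark the motifs: the G-box CACGTG, which MYC factors bind, and the AC elements ACCTAAC or ACCAAAC and the related forms ACCTACC or ACCAACC, which plant MYB factors bind, on either strand. The windows are chr1:5608432-5608731, chr1:5604794-5605093, chr4:7992380-7992679 and chr2:13517949-13518248, and the CYP83A1 window is printed from the minus strand.
CYP79F1: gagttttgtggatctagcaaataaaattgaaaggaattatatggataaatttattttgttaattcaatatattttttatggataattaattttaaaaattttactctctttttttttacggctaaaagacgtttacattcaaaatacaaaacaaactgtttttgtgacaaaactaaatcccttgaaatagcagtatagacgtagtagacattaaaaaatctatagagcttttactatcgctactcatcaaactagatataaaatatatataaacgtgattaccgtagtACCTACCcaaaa
CYP79F2: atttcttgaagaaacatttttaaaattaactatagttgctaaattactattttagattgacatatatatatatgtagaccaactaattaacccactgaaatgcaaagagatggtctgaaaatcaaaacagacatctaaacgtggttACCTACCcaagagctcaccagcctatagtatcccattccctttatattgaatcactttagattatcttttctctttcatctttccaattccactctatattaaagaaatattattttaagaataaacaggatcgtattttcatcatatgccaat
CYP83A1: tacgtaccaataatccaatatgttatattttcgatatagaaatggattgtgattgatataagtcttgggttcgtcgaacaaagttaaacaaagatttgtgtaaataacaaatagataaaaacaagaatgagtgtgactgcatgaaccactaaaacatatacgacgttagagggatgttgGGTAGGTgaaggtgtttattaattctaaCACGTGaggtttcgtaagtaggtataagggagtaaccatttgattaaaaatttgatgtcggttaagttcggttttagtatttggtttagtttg
UGT74C1: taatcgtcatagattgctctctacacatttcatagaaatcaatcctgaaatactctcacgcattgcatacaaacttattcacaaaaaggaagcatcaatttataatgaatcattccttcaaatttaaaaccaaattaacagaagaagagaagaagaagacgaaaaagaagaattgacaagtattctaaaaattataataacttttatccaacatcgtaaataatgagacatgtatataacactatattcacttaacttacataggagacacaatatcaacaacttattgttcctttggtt

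ACCTACC lay at position 38 from the start in CYP79F1, at -104 in CYP79F2 and, as its reverse complement, at -71 in CYP83A1. It was held by 3 of the 10 promoters and by 1.38% of the 27437 promoters of the same length. At least 1 of the 4 AC elements was present in 7 of 10 promoters and in 16.3% of all, the exceptions being GSTF11, GGP1 and UGT74C1. The G-box was present in CYP83A1 and SUR1, 2 of 10, and in 7.68% of all promoters. The CYP79F windows were 50.9% identical over 336 aligned columns, gaps included. They are placed differently around the shared ACCTACC, at 38 and -104, so this value depends on the annotated starts as well as on the sequence. The CYP79F1 transcript counted by the authors is 1980 bases long and that of the annotation is 2743, so the start used for its window may differ from theirs. These matches are descriptions of the sequence and were not tested as binding sites.

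Reads can be shared between the tandem copies only where their transcripts are the same. The longest such run is 100 bases of coding sequence, at chr1:5609966-5610065 in CYP79F1 and chr1:5606398-5606497 in CYP79F2, and it is shown to let the limit on their separate counts be seen.
CYP79F1 and CYP79F2: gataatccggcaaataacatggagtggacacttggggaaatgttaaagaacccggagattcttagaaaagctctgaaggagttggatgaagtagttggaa
Windows of 50 bases, the read length, that occur in both genes made up 2.0% of the CYP79F1 transcript and 2.74% of the CYP79F2 transcript. The deposited counts were fractional in all 12 libraries for CYP79F1, CYP79F2 and FMOGS-OX1, which shares 4 windows with FMOGS-OX2, and whole, to within 1e-06, in all 12 for the other 7 genes. The other genes lie at chr4:7990429-7992429 on the minus strand (CYP83A1, AT4G13770), chr3:734892-735987 (GSTF11, AT3G03190), chr4:14920376-14922519 (GGP1, AT4G30530) and chr2:8877887-8880440 on the minus strand (SUR1, AT2G20610). UGT74C1 (AT2G31790) lies at chr2:13518199-13520364, SOT17 (AT1G18590) at chr1:6398531-6400029, SOT18 (AT1G74090) at chr1:27862814-27864193 and FMOGS-OX1 (AT1G65860) at chr1:24498954-24502776 on the minus strand. GSTF11 and UGT74C1 are uncertain, because 89.3% and 13.6% of their windows also lie in genes annotated on the opposite strand and the strand setting of the counting is not stated. The gene opposite GSTF11 that the tables list, AT3G03200, held 8 to 36 counts per library, against 55 to 299 for GSTF11.

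Levels were compared between genes within a library by the deposited TPM, which corrects for length. GGP1 was the most abundant of the 10 in every library, with a median over 12 libraries of 84.7 TPM and a range of 57.9 to 117.3. CYP83A1 came second in every library, with a median of 74.9 TPM and a range of 54.0 to 84.4. UGT74C1, SUR1, CYP79F1 and SOT18 followed with medians of 31.8, 30.9, 26.3 and 25.7 TPM. They held ranks 3 to 6 in every library, in an order that differed with light. In every normal-light library it was UGT74C1, SUR1, SOT18 and CYP79F1. Under low light it was CYP79F1, SUR1, UGT74C1 and SOT18, except that SUR1 stood above CYP79F1 in the third atrx-2 low-light library. This order was described and not tested. CYP79F2 and SOT17, with medians of 13.3 and 12.2 TPM, held ranks 7 to 9 and 7 to 8. GSTF11 and FMOGS-OX1 were least abundant, with medians of 8.61 and 6.91 TPM and ranks 8 to 10 and 9 to 10. Each CYP79F copy was thus less abundant than the CYP83A1 step that follows it.

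**Figure D1:**
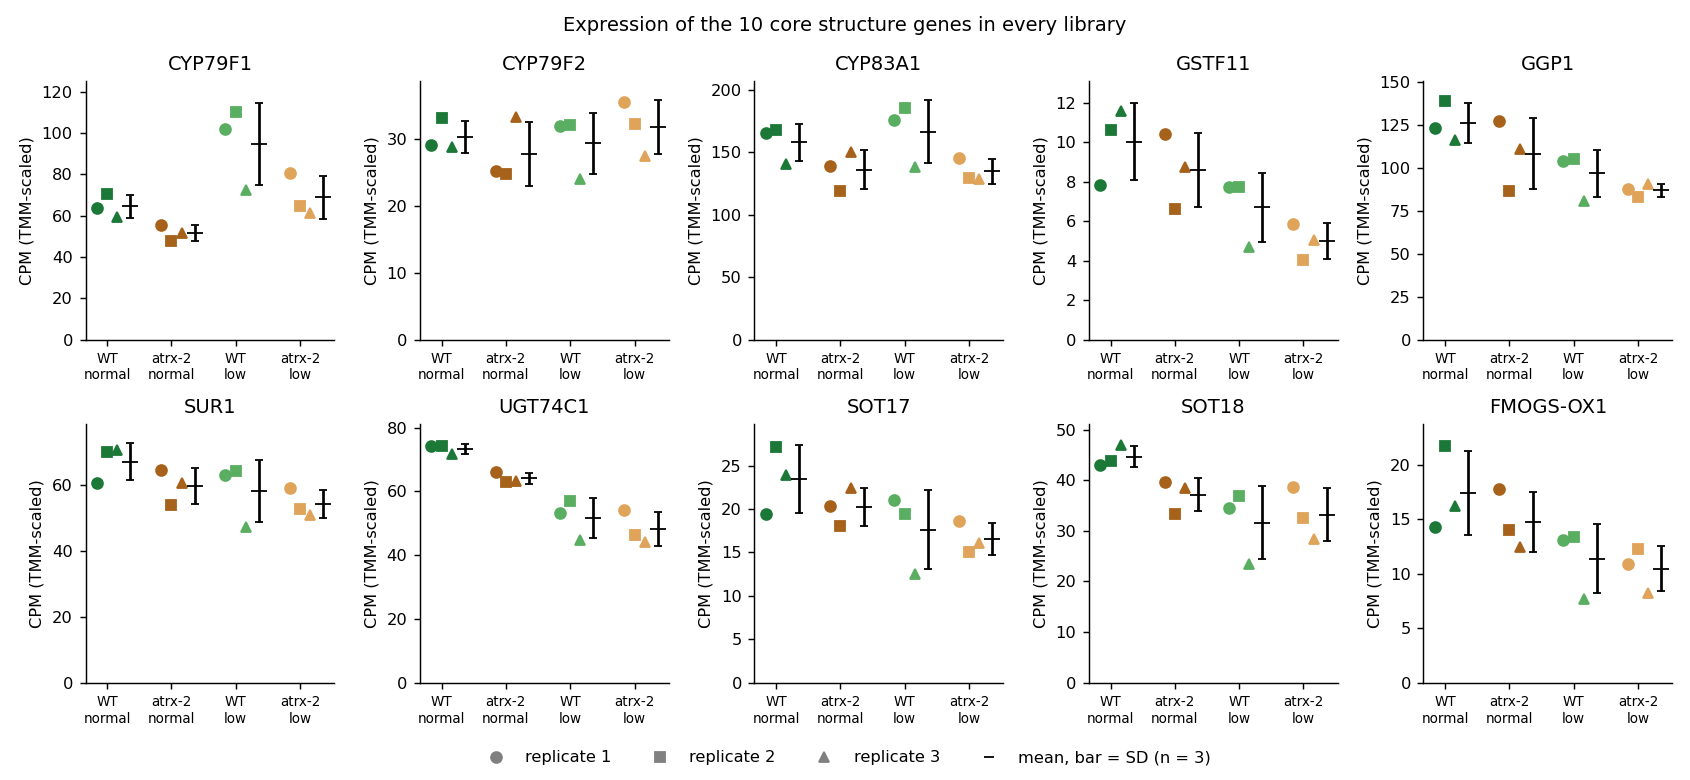
Expression of the 10 genes in each of the 12 libraries, in TMM-scaled CPM from 0 on the vertical axis, with 1 panel per gene. Symbols are replicates and the bar beside each group is its mean with SD (n = 3). CYP79F1 is highest in the wild-type low-light group, UGT74C1 is lower in both low-light groups, and the triangle of the wild-type low-light group is the lowest of its group in every panel.

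The comparison of low with normal light addressed how transcript levels depended on growth irradiance in each genotype. Under low light CYP79F1 rose in both genotypes, while the later genes that passed the test fell. UGT74C1 fell in both genotypes, GGP1, SOT18 and FMOGS-OX1 fell in wild type and GSTF11 fell in atrx-2. CYP79F2, CYP83A1, SUR1 and SOT17 passed the test in neither genotype. In wild type 5 of 10 genes were called, 1 higher and 4 lower, at an adjusted p under 0.05 by edgeR, against 34.2% of all tested genes. In atrx-2 3 of 10 were called, 1 higher and 2 lower, against 33.1% of all tested genes. These shares are near the background, so the number called does not set the 10 genes apart. The wild-type median of their log2 differences was -0.38 and the atrx-2 median was -0.22, with 8 of 10 below 0 in each, while the median of all tested genes was -0.0049 and 0.0069. The wild-type median was -0.24, with 7 of 10 below 0, when the third low-light library of that genotype was left out.

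CYP79F1 had 63.8, 70.5 and 59.3 CPM in the wild-type libraries under normal light and 101.9, 110.4 and 72.5 CPM under low light. In atrx-2 it had 55.3, 47.6 and 51.7 CPM under normal light and 80.6, 64.6 and 61.5 CPM under low light. All low-light values lay above all normal-light values within each genotype. The difference was log2 0.56 ± 0.14 (SE) in wild type, a 1.48-fold rise (adjusted p = 0.00576 by edgeR), and 0.42 ± 0.14 in atrx-2, a 1.34-fold rise (adjusted p = 0.0308). Without the third wild-type low-light library the wild-type rise was 0.72 ± 0.12. The atrx-2 call was lost without the second or the third normal-light library of that genotype, or without its first or its second low-light library, with adjusted p of 0.0515 to 0.171 by edgeR.

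CYP79F2, which acts on the longer methionine derivatives, gave no such pattern. It had 29.2, 33.1 and 28.8 CPM in wild type under normal light and 32.0, 32.1 and 24.1 CPM under low light. In atrx-2 it had 25.3, 24.8 and 33.3 CPM under normal light and 35.6, 32.3 and 27.5 CPM under low light. The groups overlapped in each genotype, and the differences were -0.04 (95% interval -0.33 to 0.25) and 0.19 (-0.1 to 0.48) on the log2 scale. With the counts of the pair summed, the light difference was 0.39 ± 0.13 in wild type (adjusted p = 0.0332 by edgeR) and 0.34 ± 0.13 in atrx-2 (adjusted p = 0.0614).

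The ratio of CYP79F1 to CYP79F2 counts, a measure chosen after the values were seen and therefore given with no test, differed most in a single group. In wild type it was 2.18, 2.13 and 2.06 under normal light and 3.18, 3.44 and 3.01 under low light. In atrx-2 it was 2.18, 1.92 and 1.55 under normal light and 2.27, 2.0 and 2.24 under low light. All 3 wild-type low-light libraries, the shallowest included, lay above the other 9, which reached 2.27 at most. The ratio depends on how reads in the shared run were divided, but that run covers a small part of either transcript.

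**Figure D2:**
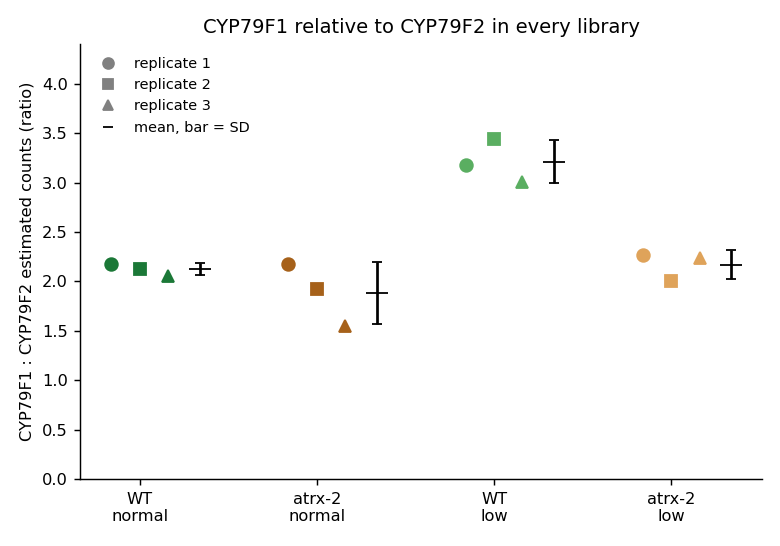
Ratio of the estimated counts of CYP79F1 to those of CYP79F2 in each library, on a linear axis from 0, with symbols for replicates and the mean with SD of each group. The wild-type low-light libraries lie at 3.01 to 3.44 and the other 9 at 1.55 to 2.27.

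CYP83A1, the next enzyme of the chain, had 165.0, 167.9 and 140.8 CPM in wild type under normal light and 175.4, 185.6 and 137.7 CPM under low light. The groups overlapped and the difference was 0.08 (95% interval -0.17 to 0.32) on the log2 scale. In atrx-2 the difference was -0.01 (-0.26 to 0.23). SUR1, the C-S lyase, had group means of 67.2 ± 5.64 and 58.3 ± 9.46 CPM in wild type under normal and low light, and 59.8 ± 5.47 and 54.2 ± 4.25 CPM in atrx-2 (SD, n = 3 each). Its differences were -0.2 ± 0.11 and -0.14 ± 0.11, and neither passed the test.

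UGT74C1, the S-glucosyltransferase, varied little between the normal-light libraries of each genotype. It had 74.2, 74.3 and 71.6 CPM in wild type under normal light and 53.2, 57.1 and 44.7 CPM under low light. In atrx-2 it had 66.1, 63.0 and 63.2 CPM under normal light and 54.2, 46.3 and 44.0 CPM under low light. The light levels did not overlap in either genotype. It fell by 0.5 ± 0.09 (SE) on the log2 scale in wild type (1.42-fold, adjusted p = 0.000785 by edgeR) and by 0.41 ± 0.09 in atrx-2 (1.33-fold, adjusted p = 0.00336). It was called in both genotypes under all 19 alternatives tried for each, including without the third wild-type low-light library, where the wild-type difference was -0.41 ± 0.09.

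GSTF11, the glutathione transferase, is the least counted of the genes that passed. It had 7.84, 10.6 and 11.6 CPM in wild type under normal light and 7.72, 7.71 and 4.67 CPM under low light. In atrx-2 it had 10.4, 6.63 and 8.74 CPM under normal light and 5.87, 4.05 and 5.03 CPM under low light. Neither genotype's light levels overlapped, although in wild type the nearest values were 7.84 and 7.72 CPM. It fell in atrx-2 by 0.78 ± 0.22 on the log2 scale (adjusted p = 0.0128 by edgeR), and the wild-type difference was -0.56 ± 0.21 (adjusted p = 0.0521). The wild-type difference was called in 6 of its 19 alternatives, where adjusted p by edgeR or DESeq2 ran from 0.0261 to 0.193. Leaving out the first normal-light or the second low-light atrx-2 library ended the atrx-2 call, at adjusted p of 0.0549 and 0.0544.

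GGP1, the peptidase, had 122.9, 139.0 and 116.1 CPM in wild type under normal light and 104.0, 105.2 and 80.9 CPM under low light, with no overlap. It fell by 0.38 ± 0.13 on the log2 scale (adjusted p = 0.034 by edgeR). In atrx-2 it had 127.4, 86.7 and 110.6 CPM under normal light and 87.7, 82.7 and 90.3 CPM under low light. These groups overlapped, and the difference was -0.32 ± 0.13 (adjusted p = 0.0744). That atrx-2 difference was called in 3 of its 19 alternatives.

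Of the sulfotransferases, SOT18 had 43.0, 43.9 and 47.0 CPM in wild type under normal light and 34.5, 36.9 and 23.5 CPM under low light. Those groups did not overlap, and SOT18 fell by 0.49 ± 0.14 (adjusted p = 0.0151 by edgeR). In atrx-2 its means were 37.1 ± 3.26 and 33.2 ± 5.22 CPM (SD, n = 3 each), a difference of -0.16 ± 0.14 (SE). SOT17 had means of 23.4 ± 3.87 and 17.6 ± 4.55 CPM in wild type and 20.2 ± 2.21 and 16.6 ± 1.81 CPM in atrx-2. Its differences of -0.39 ± 0.16 and -0.29 ± 0.16 did not pass, though the wild-type difference was called in 2 of its 19 alternatives. The coding sequences of SOT17 and SOT18 were 76.5% identical, and the SOT18 sequence was closer, at 78.2%, to that of SOT16, which serves the indole class.

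FMOGS-OX1, the side-chain oxidase, had 14.3, 21.7 and 16.2 CPM in wild type under normal light and 13.1, 13.4 and 7.72 CPM under low light. It fell by 0.58 ± 0.21 on the log2 scale (adjusted p = 0.0429 by edgeR), with no overlap. In atrx-2 the values were 17.8, 14.0 and 12.5 CPM and 10.9, 12.3 and 8.26 CPM, also with no overlap, and the difference was -0.51 ± 0.21 (adjusted p = 0.0778). It was called when the 6 atrx-2 libraries were fitted alone (adjusted p = 0.042 by edgeR) and when the third wild-type low-light library left the shared fit (adjusted p = 0.0381). Over the 10 genes, every low-light value lay below every normal-light value for 5 in wild type, where 23.5% of all tested genes did so, and for 3 in atrx-2, where 23.1% did. The 5 were GSTF11, GGP1, UGT74C1, SOT18 and FMOGS-OX1, and the 3 were GSTF11, UGT74C1 and FMOGS-OX1.

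Several wild-type calls were lost when single libraries were left out. Without the third wild-type low-light library, CYP79F1 and UGT74C1 were called and GGP1, SOT18 and FMOGS-OX1 were not, with differences of -0.26 ± 0.13, -0.32 ± 0.12 and -0.38 ± 0.19 and adjusted p of 0.144, 0.0614 and 0.164 by edgeR. The GGP1 call was also lost without the first or the second wild-type normal-light library, that of FMOGS-OX1 without the second or the third, and that of SOT18 without the third, with adjusted p of 0.0528 to 0.172. In atrx-2 1 gene, UGT74C1, was called without the second low-light library of that genotype, and 5 were called when the third wild-type low-light library left the shared fit. Ribosomal and chloroplast shares were higher in every low-light library than in any normal-light library, and their part in the light differences was not tested. With those genes taken out of the library sizes, the same 5 and 3 genes were called. Of the organ markers, the root genes PIN2 and WOX5 and the shoot gene YAB1 rose under low light in both genotypes, by log2 0.71, 1.15 and 0.37 in the wild-type libraries and by 0.93, 1.59 and 0.28 for atrx-2, that is 2 of 5 root and 1 of 4 shoot markers, where 34.2% and 33.1% of all tested genes were called. In wild type 1 root marker was called when the third low-light library was left out. The part of tissue proportions was not tested.

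**Figure D3:**
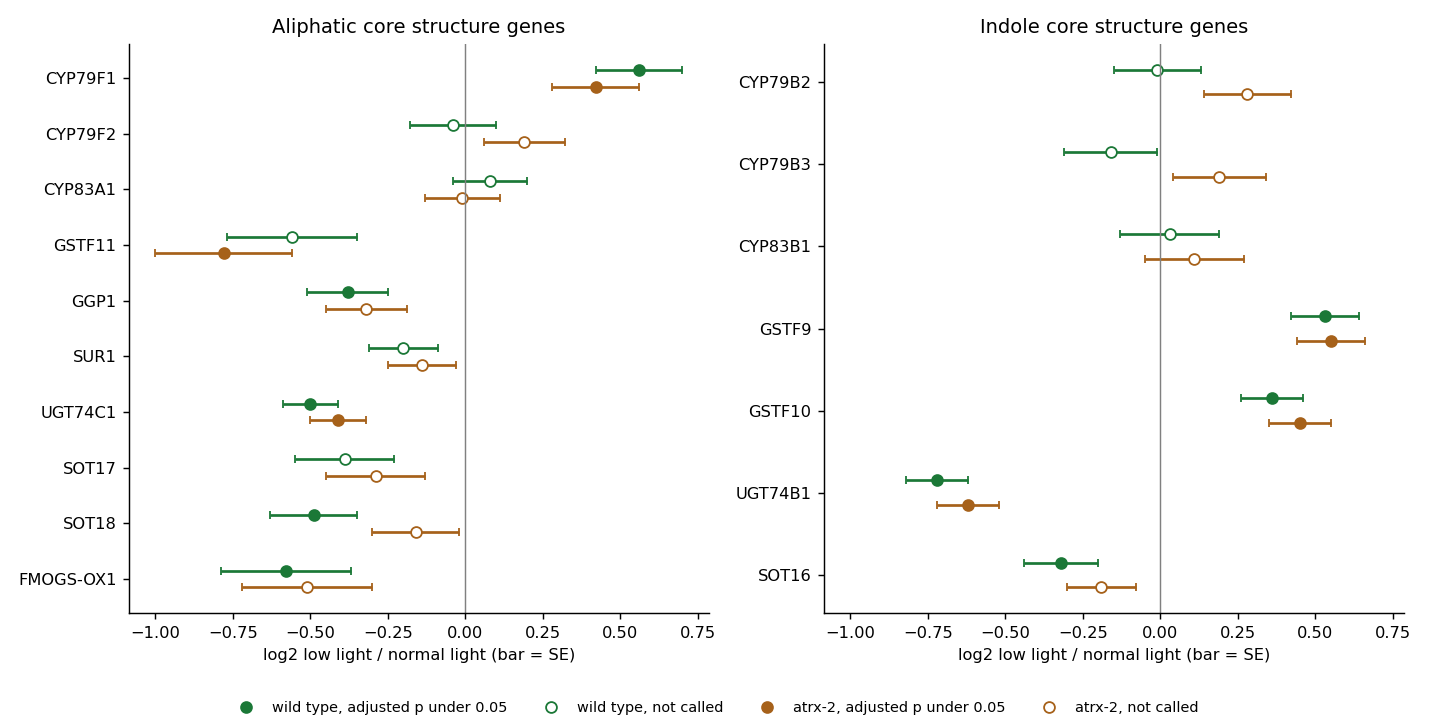
Log2 difference of low against normal light, with its standard error, for the 10 aliphatic genes in pathway order and for the 7 genes of the indole core, in wild type and atrx-2. Filled points passed an adjusted p under 0.05 and open points did not. CYP79F1 lies to the right of 0 and UGT74C1 to the left in both genotypes, and GSTF9 and GSTF10 of the indole core lie to the right.

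Setting the mutant against wild type at each light level addressed how these transcripts depended on ATRX. None of the 10 genes passed the test, at either light level or averaged over both, where 0.0674%, 0.0722% and 0.308% of all tested genes were called by edgeR. At an unadjusted p under 0.05 by edgeR there were 1, 2 and 4 of 10, against 1791, 1359 and 2113 of the 20783 tested genes. DESeq2 called 0, 0 and 1 of the 10. The estimates nevertheless leaned lower in atrx-2. All 10 were below 0 under normal light, with a median log2 difference of -0.22, against 51.2% below 0 among all tested genes. That median was -0.13 without the second atrx-2 normal-light library. Lists described below also leaned lower under normal light. There 9 of 9 chain elongation genes (median -0.19) and 6 of 7 indole core genes (median -0.16) were below 0. Of the 6 regulator genes 3 were, with a median of -0.05. Under low light 8 of the 10 aliphatic genes were below 0, with a median of -0.13, against 49.9%. Without the third wild-type low-light library all 10 were below 0 and the median was -0.28, and it was -0.07 without the first and -0.04 without the second wild-type low-light library, and -0.07 without the third atrx-2 low-light library. In the average all 10 were below 0, with a median of -0.17, against 50.9%, though CYP79F2, at -0.01, turned to above 0 in 6 of the 12 fits that left out a library. The fits at the 2 light levels share 1 estimate of spread, and members of 1 pathway are not independent replicates.

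CYP79F1 came nearest to a call. Under normal light its atrx-2 values of 47.6 to 55.3 CPM lay below the wild-type values of 59.3 to 70.5 CPM. At low light the values of 61.5 to 80.6 and 72.5 to 110.4 CPM overlapped. There the third wild-type library, at 72.5 CPM, lay below the first atrx-2 library, at 80.6 CPM. The differences were -0.32 ± 0.14 and -0.47 ± 0.14 (SE) on the log2 scale, and the average was -0.39 ± 0.1 (95% interval -0.6 to -0.19, adjusted p = 0.142 by edgeR). The average was called by DESeq2 (adjusted p = 0.0186) and without the third wild-type low-light library (-0.47 ± 0.08, adjusted p = 0.0175), and over its 18 alternatives the adjusted p ran from 0.0175 to 0.379. CYP83A1 was next, with means of 157.9 ± 14.9 and 135.8 ± 15.7 CPM under normal light and 166.2 ± 25.2 and 134.4 ± 9.64 CPM under low light for wild type and atrx-2 (SD, n = 3 each). Its average difference was -0.26 ± 0.08 (95% interval -0.44 to -0.09, adjusted p = 0.271).

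For the remaining 8 genes the averaged differences ran from -0.33 for GSTF11 to -0.01 for CYP79F2. Every atrx-2 value lay below every wild-type value for CYP79F1, UGT74C1 and SOT18 under normal light, 3 of 10 genes, where 6.62% of all tested genes did so. Under low light this held for 0 of 10, where 6.66% of all tested genes did so. The 95% intervals hold for single genes in the fit of all 12 libraries and are not adjusted for the number of genes. Under normal light the lowest bound was -0.66, for FMOGS-OX1, and under low light it was -0.93, for GSTF11. Without the third wild-type low-light library the GSTF11 difference under low light was -0.63 ± 0.22 (SE), against -0.44 ± 0.23 with all 12. The genotype by light interaction called 0 of 10 genes by edgeR and 0 by DESeq2, where 0.00481% of all tested genes were called by edgeR. At an unadjusted p under 0.05 by edgeR there were 0 of 10, against 915 of the 20783 tested genes. The estimate farthest from 0 was 0.32 (95% interval -0.1 to 0.75), for SOT18. With the third wild-type low-light library left out, SOT18 had 0.15 ± 0.16, GSTF11 was farthest at -0.41 ± 0.28, and 8 of 10 rather than 3 were below 0. With either set of libraries a light response that differs between the genotypes was not detected at this depth.

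**Figure D4:**
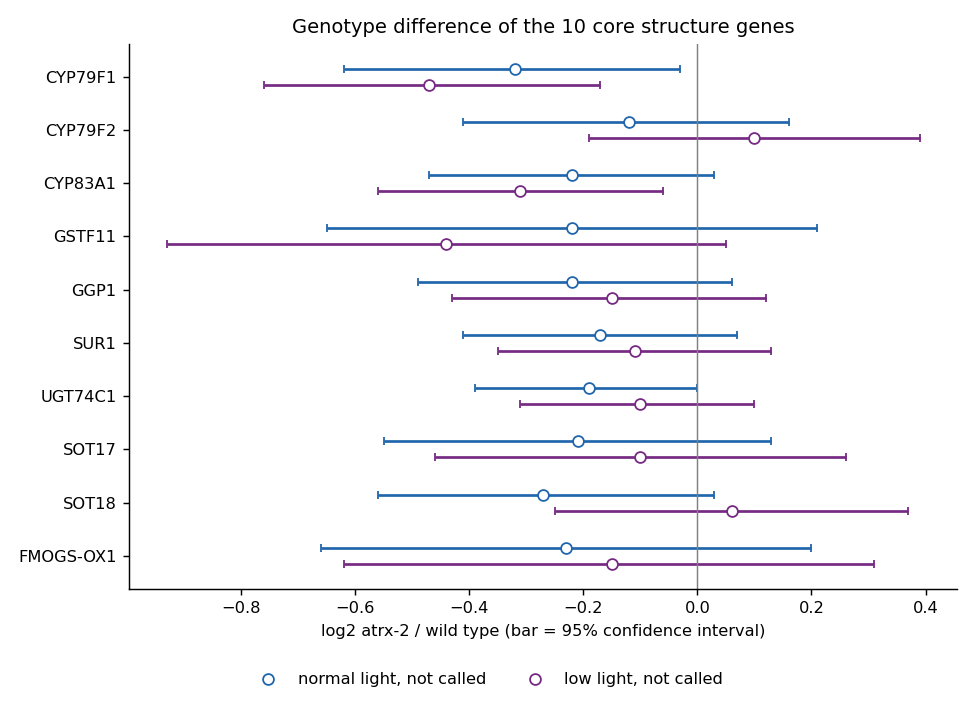
Log2 difference of atrx-2 against wild type, with its 95% confidence interval, for the 10 genes under normal and low light. No gene passed an adjusted p under 0.05, and the estimates lie below 0 except for CYP79F2 and SOT18 under low light.

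In several libraries most of the 10 genes lay on the same side of their group. The third wild-type low-light library was lowest of its group for 10 of 10 genes, with a median of -0.49 on the log2 scale against the other 2 libraries, while the median of all tested genes was 0.0. The second atrx-2 normal-light library was lowest for 9 of 10, with a median of -0.22, where 32.6% of all tested genes were lowest in it. Conversely, the second wild-type low-light and the first atrx-2 low-light libraries were highest for 8 of 10 each. Other libraries were mixed: the first wild-type normal-light library was lowest for 5 genes and the third for the other 5. The differences of the third atrx-2 normal-light library from the rest of its group ran from -0.33 to 0.41, and those of the second atrx-2 low-light library from -0.42 to 0.37. Over the 12 libraries, Pearson's r of log2 CPM between pairs of the genes had a median of 0.6 over 45 pairs and ran from -0.27, for CYP79F1 with UGT74C1, to 0.93. The libraries share light level, genotype and depth, so these values describe the libraries and carry no test. Whether depth, ribosomal share or the plants gave these positions was not tested.

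SUR1 followed the mean of the 10 genes most closely, with r = 0.98 over 12 libraries, and CYP79F1 least, with r = 0.19. Each of the 10 is part of that mean, which raises its own r, so these values are not comparable with those of outside genes. Within a light level CYP79F1 followed the mean at r = 0.9 over 6 libraries, under normal and under low light alike. Among the 20783 tested genes the one outside the group with the highest r was APK1, at 0.95 over 12 libraries and 0.95 and 0.97 over the 6 of normal and low light. APK1 and APK2 (r = 0.91) are kinases that make the active sulfate donor used by the sulfotransferases. The other 6 of the 8 likest genes were TPPD, FRA8, AT3G48020 and AT4G29700, at 0.92 each, and MRU1 and AT3G05990, at 0.91 each. TPPD is a trehalose phosphate phosphatase gene and FRA8 a gene of xylan synthesis. An r above 0.8 was held by 0.808% of all tested genes.

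**Figure D5:**
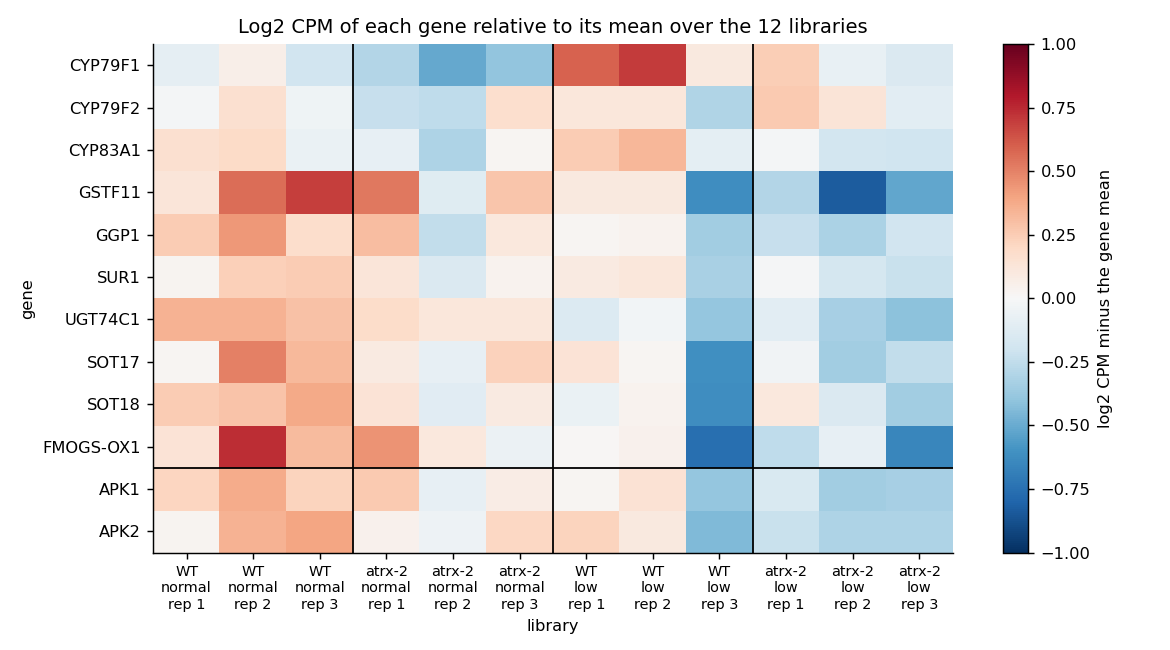
Log2 CPM of the 10 genes and of APK1 and APK2 in each library, minus the mean of the gene over the 12 libraries; red is above and blue below the mean, on a scale of -1 to 1. In the third wild-type low-light column CYP79F1 is slightly above its mean and all other genes shown are below theirs, and CYP79F1 is reddest in the first 2 wild-type low-light columns.

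The steps around the core were read in the same fits. Before the core, several chain elongation genes rose, as CYP79F1 did: 5 of 9 rose under low light in wild type and 4 of 9 in atrx-2, and none fell, where 34.2% and 33.1% of all tested genes were called in either direction. Their median log2 difference was 0.24 and 0.23. MAM1, the synthase that opens each elongation cycle, rose from 123.4 ± 4.43 to 223.3 ± 31.8 CPM in wild type (SD, n = 3 each; log2 0.86, adjusted p = 1.11e-05 by edgeR). In atrx-2 MAM1 rose from 113.0 ± 8.13 to 168.2 ± 7.74 CPM (log2 0.57, adjusted p = 0.000377). IPMI SSU2 (0.64 and 0.4), BCAT3 (0.3 and 0.32) and IPMDH1 (0.37 in each genotype) also rose. In the averaged genotype comparison 0 of the 9 were called by edgeR, where 0.308% of all tested genes were. An unadjusted p under 0.05 was held by 6, against 2113 of the 20783 tested genes. All 9 were below 0, against 50.9% of all tested genes. Without the third wild-type low-light library 2 of 9 were called lower there. The fits that each left out 1 library called 31 to 84 genes over all tested genes in that comparison.

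The enzymes of the indole core, which catalyse the same reactions on tryptophan products, were read beside the aliphatic set. The glutathione transferase genes GSTF9 and GSTF10 rose under low light, by log2 0.53 and 0.36 in the wild-type libraries and by 0.55 and 0.45 for atrx-2, where GSTF11 had -0.56 and -0.78. UGT74B1, the glucosyltransferase listed here for the indole core, fell by 0.72 in wild type and 0.62 in atrx-2 (adjusted p = 7.93e-05 and 0.000283 by edgeR), in the same direction as UGT74C1. Whether it acts on the indole class alone was not examined. In all, 2 of 7 rose and 2 fell in wild type, and 2 rose and 1 fell in atrx-2, with medians of -0.01 and 0.19, where 34.2% and 33.1% of all tested genes were called. In wild type 1 fell and the median was 0.15 when the third low-light library was left out. The difference between the aliphatic and indole genes was not tested.

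After and around the core, sulfur supply and breakdown genes mostly fell. Of 12 sulfur and glutathione genes, 8 fell in each genotype and 2 rose in wild type and 1 in atrx-2, with a median log2 difference of -0.7 and -0.72, where 34.2% and 33.1% of all tested genes were called. The wild-type count was 7 when the third low-light library of that genotype was left out. SDI1, a sulfur-deficiency gene that represses glucosinolate synthesis, fell by 4.14 on the log2 scale in wild type and by 3.6 in atrx-2. APR1, a reductase of activated sulfate, fell by 1.22 and 1.03, and ATPS1, the sulfurylase, by 0.69 and 0.78. GSH2, the glutathione synthetase, rose by 0.82 and 0.86. Of 8 tested transport and breakdown genes, 6 fell and 1 rose in each genotype, with medians of -0.65 and -0.76, among them the glucosidase gene BGLU28 (log2 -2.67 and -3.53), the transporter gene GTR1 (-1.27 and -1.02) and the myrosinase gene TGG2 (-0.87 and -0.98). BGLU28 held 3 to 12 counts per low-light library in wild type and 1 to 8 in atrx-2, so the size of its fall is uncertain. Of the 7 tested genes of other side-chain modification, FMOGS-OX2 (-2.34 and -2.92) and AOP2 (-0.98 and -1.08) fell and GSL-OH (0.72 and 0.43) rose in both genotypes. The list medians were -0.11 and -0.39. AOP2 is annotated as a transcribed pseudogene and had 2.02 to 6.44 CPM, so its fall is not read as that of a working enzyme. FMOGS-OX2, whose coding sequence is 84.7% identical to that of FMOGS-OX1, had means of 13.1 ± 0.94 CPM under normal and 2.64 ± 0.935 CPM under low light in wild type.

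Of the 6 regulator genes, 2 fell under low light in wild type and 4 in atrx-2, and none rose, with medians of -0.05 and -0.47, where 34.2% and 33.1% of all tested genes were called. MYC4 fell by 0.91 and 0.87 on the log2 scale and MYC2 by 1.18 and 1.38. MYB28 had differences of -0.05 and 0.02, neither called. MYB76 lay on the other side of 0, at 0.93 ± 0.35 (SE) in wild type (adjusted p = 0.0503 by edgeR) and 0.41 ± 0.39 in atrx-2, neither called. It had only 0.406 to 2.29 CPM. MYB29 fell in atrx-2, from 14.3 ± 2.72 to 8.65 ± 0.431 CPM (SD, n = 3 each; log2 -0.73, adjusted p = 0.00178 by edgeR), and had 15.9 ± 1.03 and 15.3 ± 2.95 CPM in wild type. Its interaction estimate of -0.68 ± 0.21 did not pass (adjusted p = 0.978 over all genes). None of these 6 lists had a member called in a genotype comparison or in the interaction by edgeR with all 12 libraries. In each list 0 to 6 members had an unadjusted p under 0.05. For genotype under normal light, low light and averaged, and for the interaction, 1791, 1359, 2113 and 915 of the 20783 tested genes had such a p. The genotype difference of MYB29 was -0.84 ± 0.15 under low light (adjusted p = 0.0749 by edgeR) and -0.5 ± 0.1 in the average (adjusted p = 0.0629). Without the third wild-type low-light library, 1 regulator and 1 gene of other side-chain modification were called lower in the average, and 1 regulator, 1 chain elongation gene and 1 gene of other side-chain modification under low light. Over all tested genes, the fits that each left out 1 library called 31 to 84 in the average and 7 to 21 under low light.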

How the data were processed

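Libraries were made from total RNA of whole seedlings with a NEBNext Ultra II kit and sequenced as single reads of 50 bases, per the labels. The authors deposited kallisto 0.42 tables with estimated counts and TPM for each transcript, 1 per gene, against TAIR10, per the submitters' processing notes. DESeq2 is also named there. No source used here gives the strand or index options. Estimated counts were rounded to whole numbers (12.3% to 13.9% per library were not whole at a tolerance of 1e-06). The deposited TPM served only to order genes within a library.

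Counts were analysed in edgeR 4.0.16 under R 4.3.3 with filterByExpr by group, TMM and the quasi-likelihood F test over 4 groups, with 8 residual degrees of freedom and a biological coefficient of variation of 10.4%. Benjamini-Hochberg adjustment ran over all 20783 tested genes, tests were two-sided, and an adjusted p under 0.05 counts as a call. Intervals are 95% from the fit. The members, lists and tests were chosen with earlier results of these data known. Named genes are the members, ATRX, up to 3 called members with the smallest p per list and light comparison, any list member called for genotype or interaction, and the 8 likest genes. AT3G03200, MYB28, MYB76, SOT16, PIN2, WOX5 and YAB1 were named after their values were seen. Likeness used log2 CPM with a prior count of 2. Alternatives were DESeq2 1.42.0, RLE factors, no organelle or ribosomal genes, no filter, a replicate block, each library left out, the CYP79F pair summed and the 6 compared libraries alone. The fit was checked on simulated data.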

Additional observations from a re-analysis of the deposited data

How the results depend on the processing

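The members' counts of calls kept within 1.5 times their values in each of the 6 comparisons under RLE factors, without organelle and ribosomal genes and without the low-count filter, and in the 4 comparisons that could be fitted on the 6 compared libraries alone. With DESeq2 the averaged genotype comparison called 1 member, CYP79F1. When each library was left out in turn, calls among the members ran from 2 to 6 for light in wild type, from 1 to 5 for light in atrx-2 and from 0 to 1 for the averaged genotype comparison. Of 1114 alternative values for single members, 1055 kept their direction and side of the threshold, 15 lost a call, 16 gained one and 28 turned direction, none of the last called in either fit. All 28 came from leaving out a library, and the cause was not tested. The ranges were -0.09 to 0.04 (CYP79F2, averaged genotype), -0.02 to 0.2 (CYP79F2, genotype under low light), -0.1 to 0.08 (CYP79F2, light in wild type), -0.01 to 0.2 and -0.1 to 0.06 (CYP83A1, light in wild type and atrx-2), -0.29 to 0.04 and -0.11 to 0.18 (SOT17 and SOT18, genotype under low light). For the interaction they were -0.14 to 0.23 (FMOGS-OX1), -0.07 to 0.2 (GGP1), -0.09 to 0.25 (SOT17), -0.08 to 0.14 (SUR1) and -0.01 to 0.17 (UGT74C1).

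Counts over all genes moved more. DESeq2 called 65, 54, 158 and 3 genes for genotype under normal light, under low light, averaged and for the interaction, against 14, 15, 64 and 1. Without the filter the genotype counts were 41, 26 and 100, without organelle and ribosomal genes 25 under normal light, and with the 6 compared libraries 8. Leaving out a library gave 5 to 19, 7 to 21, 31 to 84 and, for the interaction, 0 to 2. The replicate block gave 11, 17, 92 and 0, and called 5 members for light in wild type and 4 in atrx-2, where FMOGS-OX1 was added (-0.51 ± 0.16, adjusted p = 0.0299 by edgeR). Same-numbered samples did not deviate together: r ran from -0.15 to 0.17 over 18 pairs, with 4 above 0.1, so the numbers were not taken as pairs. Groups of 3 limit what could be detected, and the least counted members, GSTF11 and FMOGS-OX1, had the widest intervals.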
